A study of Homo sapiens with 4 samples.

Results

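The genes described here are those that make sterols, fatty acids and glycerolipids, together with the regulators that set their transcription. The set was written as 46 gene symbols, and its members on the arrays are all probe sets whose only annotated gene is one of them. This gave 90 probe sets of 54675, belonging to 41 of the 46 genes. CYP51A1, FADS1 and ELOVL1 shared each of their probe sets with a second annotated gene, and no probe set was annotated to FDFT1 or ACSL3 alone, so these 5 were not analysed here. The RNA came from cultures of HCT116, a line derived from a human colorectal carcinoma, which had been transfected with the help of a lipid reagent with an siRNA against TET1 (2 arrays) or with a control siRNA (2 arrays), and the design text states that the duplicates were biological. TET1 encodes an enzyme that oxidises methylated cytosine in DNA. No other genotype or agent distinguishes the groups, and all 4 cultures received the transfection reagent. The labels give 1 kind of TET1 siRNA, so loss of TET1 and other effects of that siRNA cannot be told apart.

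Mammalian cells control lipid synthesis through the SREBP transcription factors, which lie in the endoplasmic reticulum as inactive precursors. SCAP escorts the precursors to the Golgi for cleavage when sterols are scarce, and the INSIG proteins hold SCAP back when sterols are plentiful. SREBP-2 acts mainly on genes of cholesterol synthesis and SREBP-1 mainly on genes of fatty acid synthesis. The sterol branch runs from acetyl-CoA through mevalonate and squalene to cholesterol, and the other branch builds fatty acids from acetyl-CoA and joins them to glycerol in membrane lipids and in the triglycerides of lipid droplets. Rapidly growing colorectal cancer cells use both.

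Each array gives 1 signal per probe set, a linear intensity in arbitrary units that had been scaled to a common level, a 2% trimmed mean of 100.01 on all 4 arrays. Median signals were 13.9 and 14.4 on the TET1 siRNA arrays and 14.3 and 15.5 on the control siRNA arrays. The targeted transcript, TET1, read 14.6 and 15.0 with TET1 siRNA against 58.1 and 59.6 with control siRNA (25.1% of the control mean, limma adjusted p = 9.69e-04). Of 12 colorectal epithelial markers 8 lay above the filter described next. EPCAM (2742 to 3134), KRT18 (6216 to 7561), KRT8 and KRT19 were bright on all arrays, KRT20, VIL1 and CEACAM5 were dim (3.4 to 29.8), and CDX1, CDX2, CDH17 and LGALS4 lay below the filter. CDH1, the gene of E-cadherin, fell by 1.16 with TET1 siRNA (474.8 and 394.0, against 925.1 and 1059.0 with control siRNA, limma adjusted p = 2.78e-05), and KRT8 rose by 0.32 (adjusted p = 0.00887). Of 8 hepatocyte markers 6 lay below the filter, as did 6 of 8 adipocyte markers, 4 of 7 fibroblast markers and 5 of 7 leukocyte markers. The fibroblast marker COL1A1 rose by 0.47 (337.4 and 451.9 with TET1 siRNA against 296.2 and 258.9 with control siRNA, limma adjusted p = 0.0242). The other fibroblast markers above the filter, COL1A2 (-0.20) and DCN (-0.10), had the opposite sign and did not pass. The summed fibroblast markers were 389.2 and 510.8 against 357.6 and 321.9, mostly from COL1A1. The part of these markers in the lipid gene results was not tested. ALB ran from 4.1 to 8.2 and ADIPOQ from 1.4 to 5.8 over the 4 arrays, and summed adipocyte markers were 351.6 and 406 with TET1 siRNA against 507.8 and 543.6 with control siRNA, mostly from PPARG. With 2 arrays in each group, it is their number that sets how precise the values below can be.

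A gene was read from its probe set of highest mean signal and was tested if its mean on the log2(signal + 16) scale lay above the median of all probe sets, a signal of 13.1. All log2 differences are TET1 siRNA minus control siRNA on that scale. The added constant shrinks the differences of genes with low signals. A gene is called changed where limma's adjusted p over all 12389 genes tested is below 0.05. Of the 41 members with a probe set, 40 were tested, and THRSP, a lipogenic regulator of liver and fat, was below the filter with signals of 4.2 to 16.6. Less transcript in every cell and fewer cells that carry it cannot be told apart in RNA of whole cultures.

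After TET1 siRNA, 8 members were lower and 3 higher, and the farthest below 0 was GPAM, at the first step of glycerolipid assembly. GPAM fell to 33.4% of its control signal, ACAT2 to 40.8%, DGAT1 to 52.4% and ACSL5 to 64.9%. STARD4, AGPAT2, ACACA and SCD fell by less, and TM7SF2, PLIN2 and ACSL4 rose. The 11 calls are 27.5% of the members tested, against 21.9% of all genes tested. Lower members were 20% against a background of 10.6%, and higher members 7.5% against 11.2%. The gap in lower calls depended on the setting. With each array centred on its median, 10% of members and 8.14% of all genes were lower, and without control siRNA replicate 2, 10% and 7.05%. With quantile normalization the shares were 20% and 10.2%, without the filter 12.2% and 4.32%, and with a gene's probe sets averaged 20.5% and 7.71%. Both shares were 0 without limma's moderation of the variance. The median log2 difference of the members was -0.11, against 0.0098 over all genes, and the members' own values ran from -1.47 to 0.48. These shares describe the members and were not tested as a set. The TET1 siRNA and control siRNA arrays did not overlap in 30 of the 40 members (75%), and the same held for 59.0% of all genes tested.

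**Figure D1:**
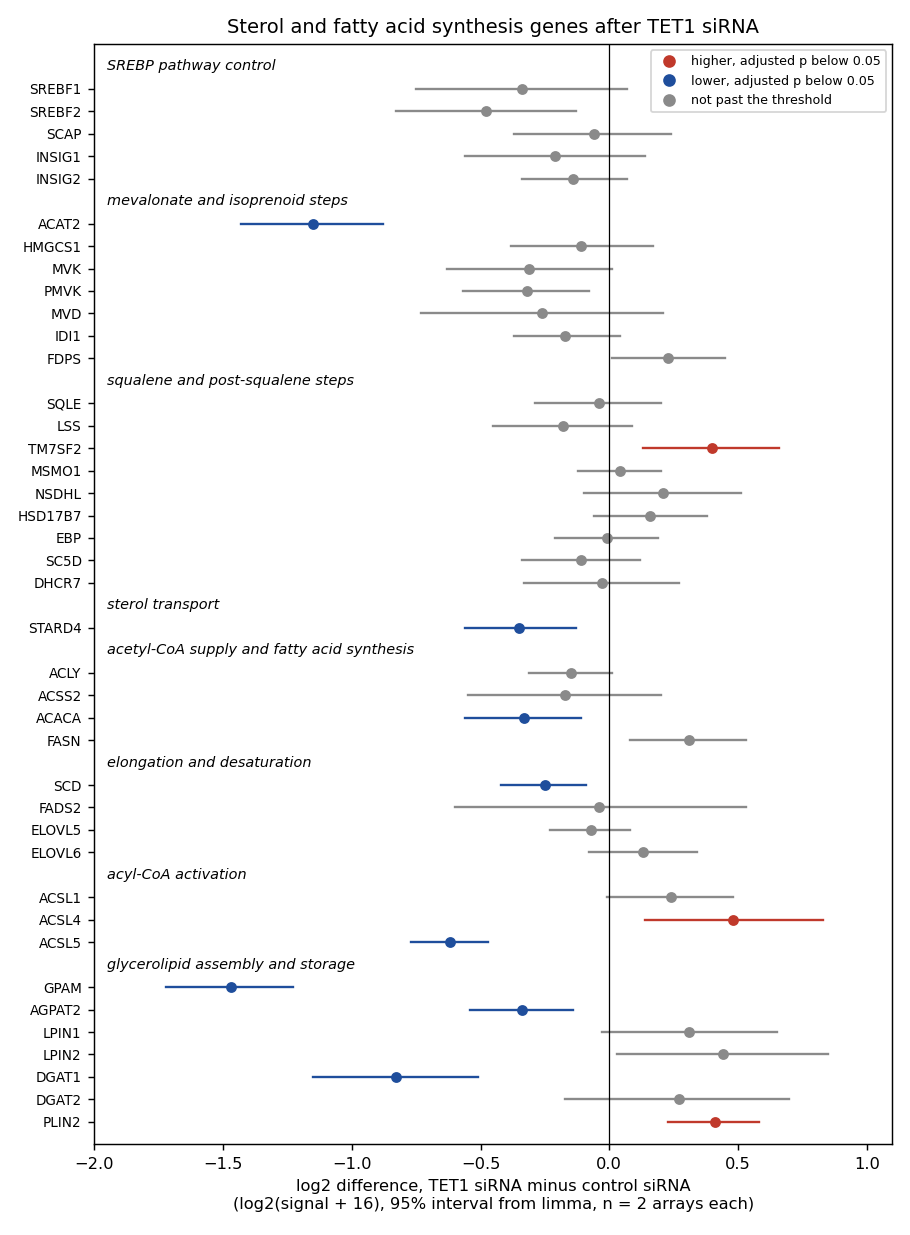
Log2 difference (TET1 siRNA minus control siRNA, horizontal axis) of each of the 40 members tested, by role in the pathway, with limma's 95% interval as a bar (n = 2 arrays each). GPAM, ACAT2, DGAT1 and ACSL5 lie farthest to the left, at -1.47, -1.15, -0.83 and -0.62, and among the post-squalene enzymes TM7SF2 lies farthest from 0, at 0.40.

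The regulators of SREBP processing come first. SREBF2, which encodes SREBP-2, read 63.6 and 52.9 with TET1 siRNA and 91.1 and 83.9 with control siRNA. Both TET1 siRNA arrays lay below both control siRNA arrays, but the log2 difference of -0.48 (SE 0.16, 95% interval -0.83 to -0.13) missed the threshold (limma adjusted p = 0.0521). The other SREBF2 probe sets gave 49.3 and 51.2 against 82.2 and 78.0, and 27.0 and 17.2 against 36.8 and 37.8, each with TET1 siRNA first. When every probe set was tested by itself, the pair beginning with 49.3 passed (log2 difference -0.54, limma adjusted p = 0.0407) and the last did not (-0.50, adjusted p = 0.145). SREBF2 thus stood lower in all 3 of its probe sets, with groups that did not overlap, at the edge of the threshold.

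SREBF1, the gene of SREBP-1, read 39.9 and 52.3 with TET1 siRNA and 55.7 and 69.5 with control siRNA. The groups did not overlap, and the difference of -0.34 did not pass (95% interval -0.75 to 0.07, limma adjusted p = 0.231). SCAP, the escort protein, read 166.4 and 128.2 against 161.1 and 146.5, and the TET1 siRNA arrays spanned the control siRNA arrays. INSIG2 read 537.2 and 466.1 against 562.6 and 541.1, a log2 difference of -0.14 (95% interval -0.34 to 0.07). INSIG1, itself a well-known target of SREBP, depended on the probe set. Its brightest read 102.9 and 150.7 with TET1 siRNA against 152.8 and 141.1 with control siRNA, with overlapping groups (-0.21, limma adjusted p = 0.407). Another read 74.8 and 66.3 against 140.5 and 110.7 and was lower when tested by itself (-0.70, adjusted p = 0.011), and the dimmest read 46.9 and 27.0 against 44.9 and 49.5 (-0.28, adjusted p = 0.438). All 5 regulators had negative log2 differences, with a median of -0.21, where 48.8% of all genes tested had negative values. None of the 5 passed by its brightest probe set with the settings used throughout. SREBF2 passed with a pseudocount of 64 (adjusted p = 0.0499) and, when a gene's probe sets were averaged, both SREBF2 (-0.5049, adjusted p = 0.0289) and INSIG1 (-0.3981, adjusted p = 0.0398) passed. SREBF2 passed in only these 2 of 14 alternative settings, and INSIG1 in 1 of 15. With each array centred on its median the limma adjusted p of SREBF2 was 0.0783, and with quantile normalization 0.0753. Without 1 array its log2 difference was from -0.59 to -0.38. Leaving out TET1 siRNA replicate 1 put INSIG1 at 0.034, and leaving out replicate 2 of that group put SCAP at 0.10.

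**Figure D2:**
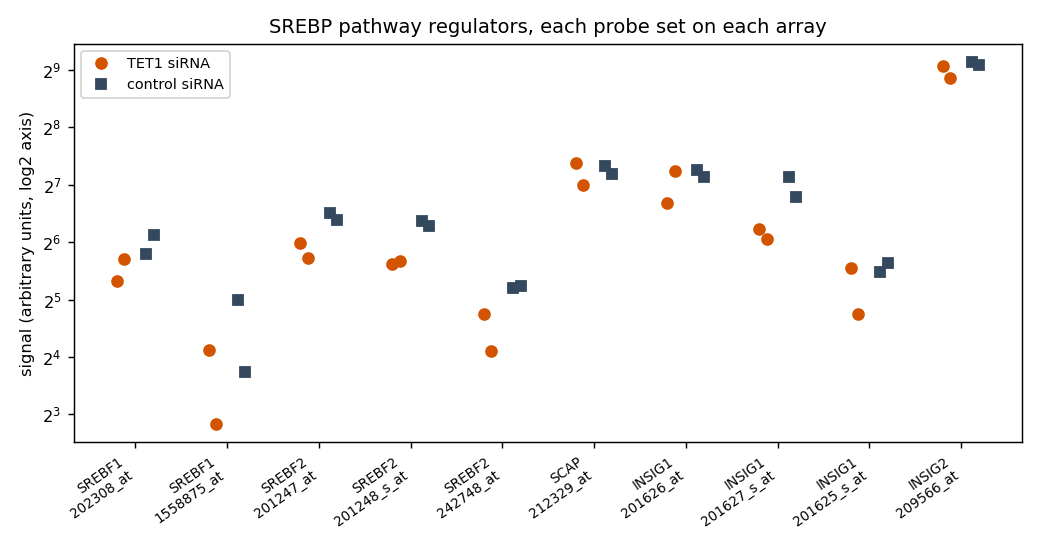
Signal (arbitrary units, log2 axis) of each tested probe set of the 5 regulators, with the TET1 siRNA arrays as circles to the left and the control siRNA arrays as squares to the right. The circles of SREBF2 lie below the squares in all 3 probe sets, while those of SCAP and of the brightest INSIG1 probe set overlap them.

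The promoter of SREBF2 is shown because it carries the letters of a sterol regulatory element, the DNA site that SREBP proteins bind. That of STARD4 is shown because STARD4, the member placed under sterol transport, fell. Both are from RefSeq (GRCh38.p14) and run from 250 bases before to 50 bases after the annotated start. SREBF2 lies at chr22:41832855-41833154 on the plus strand and STARD4 at chr5:111512486-111512785 on the minus strand. Capitals mark matches on either strand to TCACNCCAC (the core of a sterol regulatory element), CCAAT (read by NF-Y), CACGTG (an E-box) and GGGCGG (a GC box). In SREBF2 the last run of capitals holds overlapping GC boxes.
SREBF2: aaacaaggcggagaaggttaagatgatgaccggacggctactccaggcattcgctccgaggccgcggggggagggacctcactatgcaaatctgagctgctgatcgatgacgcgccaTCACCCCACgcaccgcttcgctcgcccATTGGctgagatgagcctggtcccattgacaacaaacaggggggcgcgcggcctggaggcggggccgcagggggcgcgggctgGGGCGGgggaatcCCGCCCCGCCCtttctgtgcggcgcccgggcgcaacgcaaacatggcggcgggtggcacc
STARD4: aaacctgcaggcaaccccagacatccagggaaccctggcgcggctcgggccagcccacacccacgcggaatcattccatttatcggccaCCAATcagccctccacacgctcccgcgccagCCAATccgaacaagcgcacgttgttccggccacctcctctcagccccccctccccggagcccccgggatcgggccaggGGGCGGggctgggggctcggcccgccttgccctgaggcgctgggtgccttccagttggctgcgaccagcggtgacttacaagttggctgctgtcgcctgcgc

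SREBF2 holds 1 match to TCACNCCAC, 1 to CCAAT and 3 GC boxes, and STARD4 holds 2 CCAAT matches and 1 GC box. Promoters of 40 members were in the table, 59 in all because some genes have several starts. TCACNCCAC was found in 2 of the 59 (3.39%, SREBF2 and 1 of the ACSL1 promoters), against 1.13% of all 35093 promoters. CCAAT was in 52.5% against 34.6%, the E-box in 13.6% against 7.26% and the GC box in 78.0% against 44.9%. Members also had more CpG dinucleotides, the sites that are methylated and that TET1 acts on: taking the CpG-richest promoter of each gene, the median was 29.5 in 300 bases, against 16 over 27305 genes. Both backgrounds, of 35093 promoters and 27305 genes, hold all genes of the reference, expressed here or not, and were not matched to the members. These arrays do not measure methylation. ACAT2 and DGAT1, which fell, had no promoter here. Among the members with one, the median CpG count was 24.5 for the 6 that fell (range 5 to 53). It was 36 for the 3 that rose (24 to 51) and 29.5 for the 26 tested without passing (18 to 52). The ranges overlap, and a match or a CpG count is a description of the sequence only.

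In the sterol branch 2 of 17 members tested fell and 1 rose (11.8% and 5.88%, against 10.6% and 11.2% of all genes tested). ACAT2, the cytosolic thiolase that joins acetyl-CoA units at the head of the mevalonate pathway, read 90.3 and 82.5 with TET1 siRNA and 214.6 and 209.0 with control siRNA. The groups lay far apart compared with the spread inside either, 86.4 ± 5.52 against 211.8 ± 3.96 (SD, n = 2 each). The log2 difference was -1.15 (SE 0.12, limma adjusted p = 8.71e-05), the 71st largest fall among all genes past the threshold. ACAT2 has a single probe set, and RefSeq places TCP1 and SOD2 across part of the gene. SOD2 read 197.2 and 233.5 against 199.2 and 223.7, a log2 difference of 0.02. TCP1 was not among the genes tested and has no value here.

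None of the later mevalonate enzymes passed. HMGCS1, which makes HMG-CoA, read 195.8 and 190.7 with TET1 siRNA against 186.9 and 235.1 with control siRNA, and its other probe set pointed the other way (log2 differences -0.11 and 0.22). The kinases MVK (-0.31) and PMVK (-0.32) had TET1 siRNA values below both control values, with limma adjusted p = 0.165 and 0.0596. PMVK read 235.8 and 209.8 against 299.8 and 265.3. The decarboxylase gene MVD (-0.26) had overlapping groups, and the isomerase gene IDI1 had a value of -0.17. FDPS, which makes farnesyl diphosphate, ran the other way, with 504.7 and 617.2 against 465.4 and 481.8 (0.23, adjusted p = 0.135). Of these 7 genes 6 had negative values, 1 of which passed, and the median was -0.26.

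From squalene to cholesterol the median log2 difference was -0.01 over 9 genes. SQLE, the squalene epoxidase that is often a slow step of the pathway, read 279.0 and 279.3 with TET1 siRNA against 316.4 and 262.4 with control siRNA (log2 difference -0.04, 95% interval -0.29 to 0.20). The sterol oxidase gene MSMO1 read 969.0 and 952.5 against 944.0 and 920.1 (0.04, -0.12 to 0.20), and the isomerase gene EBP 329.8 and 332.2 against 333.5 and 334.5 (-0.01, -0.21 to 0.19). For these 3 the interval leaves out a change of 0.30 either way. The cyclase gene LSS was at -0.18, SC5D at -0.11 and the reductase gene DHCR7 at -0.03, while NSDHL (0.21) and HSD17B7 (0.16) were on the other side, and none of the 5 passed (adjusted p 0.289 to 0.908). Dimmer probe sets of SC5D (27.2 and 27.1 with TET1 siRNA against 51.8 and 40.7 with control siRNA, -0.52) and DHCR7 (111.0 and 98.4 against 143.2 and 134.0, -0.36) had groups that did not overlap and did not pass by themselves (adjusted p = 0.0951 and 0.0932). HSD17B7 is read by an _x_at probe set, a class that can also bind near-identical copies. TM7SF2, a sterol reductase of this stretch, was the exception, with 168.9 and 168.1 against 128.7 and 119.4. It rose by 0.40 (SE 0.12, limma adjusted p = 0.0363), and it missed the threshold whenever any 1 of the 4 arrays was left out (adjusted p 0.0593 to 0.144).

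STARD4, which carries cholesterol between membranes, read 281.7 and 254.2 with TET1 siRNA and 350.3 and 339.1 with control siRNA. Both TET1 siRNA arrays were below both controls, and the fall of 0.35 passed (SE 0.099, limma adjusted p = 0.0276). It still passed without TET1 siRNA replicate 1 (adjusted p = 0.0462) but not without any other array (adjusted p up to 0.17), nor with each array centred on its median (0.0678).

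In the fatty acid and glycerolipid branch 6 of 18 members tested fell and 2 rose, 44.4% in all. Among all genes tested 21.9% passed, 10.6% lower and 11.2% higher. The first steps moved little. ACLY, which makes cytosolic acetyl-CoA from citrate, read 1394.0 and 1346.6 with TET1 siRNA against 1459.7 and 1593.4 with control siRNA (log2 difference -0.15, limma adjusted p = 0.163), and ACSS2, which makes it from acetate, had overlapping groups (-0.17). ACACA, the acetyl-CoA carboxylase of fatty acid synthesis, read 271.0 and 242.8 against 339.5 and 315.8. It fell by 0.33 (SE 0.10, adjusted p = 0.0381), its other probe set was lower as well (-0.52, adjusted p = 0.114 by itself), and without any 1 array it missed the threshold (adjusted p 0.0559 to 0.213). FASN, the synthase that uses its product, stood on the other side, with 240.5 and 248.1 against 195.2 and 194.1. The groups of FASN did not overlap, and the difference of 0.31 did not pass (95% interval 0.08 to 0.53, adjusted p = 0.0583).

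Among the enzymes that lengthen and desaturate fatty acids only SCD passed. SCD, the desaturase that makes oleate, read 1279.1 and 1165.7 with TET1 siRNA against 1410.7 and 1506.7 with control siRNA and fell by 0.25 (SE 0.076, limma adjusted p = 0.0341). Its other 3 probe sets were at -0.14 to -0.25 and did not pass by themselves, and the call was lost when replicate 2 of control siRNA (-0.21) or of TET1 siRNA (-0.19) was left out. ELOVL5 (-0.07) and ELOVL6 (0.13), both fatty acid elongases, had groups that did not overlap but differences that did not pass. FADS2, another desaturase, was dim, at 16.5 and 10.1 against 13.6 and 14.1, so its interval was wide (-0.60 to 0.53).

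Acyl-CoA synthetases, which activate fatty acids for later use, moved apart from one another. ACSL5 read 1295.1 and 1359.8 with TET1 siRNA and 2009.0 and 2083.0 with control siRNA. It fell by 0.62 (SE 0.068, limma adjusted p = 1.00e-04), and its other probe set fell by 0.91 when tested by itself (594.9 and 620.9 against 1143.8 and 1173.3, adjusted p = 3.95e-05). RefSeq places ZDHHC6 across part of ACSL5, and ZDHHC6 had a log2 difference of -0.03. ACSL4, which prefers arachidonate, read 113.1 and 122.8 against 68.8 and 92.0 and rose by 0.48 (SE 0.16, adjusted p = 0.0476). The ACSL4 call held without control siRNA replicate 2 (adjusted p = 0.0261) and was lost without each other array (0.116 to 0.23), and with the mean of its 3 probe sets, of which 2 were below the filter, ACSL4 was at 0.089. ACSL1 read 215.3 and 202.9 against 177.5 and 172.8 (0.24, adjusted p = 0.158).

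Glycerolipid assembly held the largest fall of all members. GPAM, the mitochondrial acyltransferase that puts the first fatty acid on glycerol phosphate, read 131.3 and 115.5 with TET1 siRNA and 357.7 and 382.2 with control siRNA. The means were 123.4 ± 11.2 and 369.9 ± 17.3 (SD, n = 2 each), a ratio of 0.334. GPAM fell by 1.47 (SE 0.11, 95% interval -1.72 to -1.23, limma adjusted p = 9.63e-06), the 14th largest fall among all genes past the threshold. Its other probe set gave 58.2 and 59.4 against 167.4 and 182.3 and fell by 1.35 when tested by itself (adjusted p = 1.25e-04). AGPAT2, which adds the next fatty acid, read 296.3 and 303.6 against 392.3 and 376.1 and fell by 0.34 (SE 0.092, adjusted p = 0.0215). The second AGPAT2 probe set fell by 0.68 (adjusted p = 0.0238 by itself), although the gene's own call was lost whenever an array was left out (adjusted p 0.0566 to 0.10).

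The phosphatases that make diacylglycerol stood higher without passing. LPIN1 read 86.5 and 80.6 with TET1 siRNA against 62.0 and 66.6 with control siRNA (log2 difference 0.31), and LPIN2 76.9 and 107.4 against 72.2 and 54.6 (0.44, limma adjusted p = 0.118). The enzymes of the last step of triglyceride synthesis, DGAT1 and DGAT2, gave opposite signs. DGAT1 read 98.6 and 114.4 against 230.6 and 175.7 and fell by 0.83 (SE 0.15, adjusted p = 0.00201). RefSeq places HSF1 across part of DGAT1, and HSF1 had a log2 difference of -0.33 (adjusted p = 0.0941). DGAT2 read 47.0 and 63.3 against 49.2 and 36.9 by its brightest probe set, with overlapping groups (0.27), and 39.9 and 45.3 against 18.8 and 21.4 by the other, which was higher when tested by itself (0.70, adjusted p = 0.035). PLIN2, a coat protein of lipid droplets, read 675.1 and 657.5 against 496.5 and 500.8. It rose by 0.41 (SE 0.080, adjusted p = 0.00391), and it passed without each array in turn. A dim PLIN2 probe set (13.5 and 24.2 against 23.0 and 23.1) did not differ beyond its spread, and with the mean of both PLIN2 was at 0.11 (adjusted p = 0.525).

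**Figure D3:**
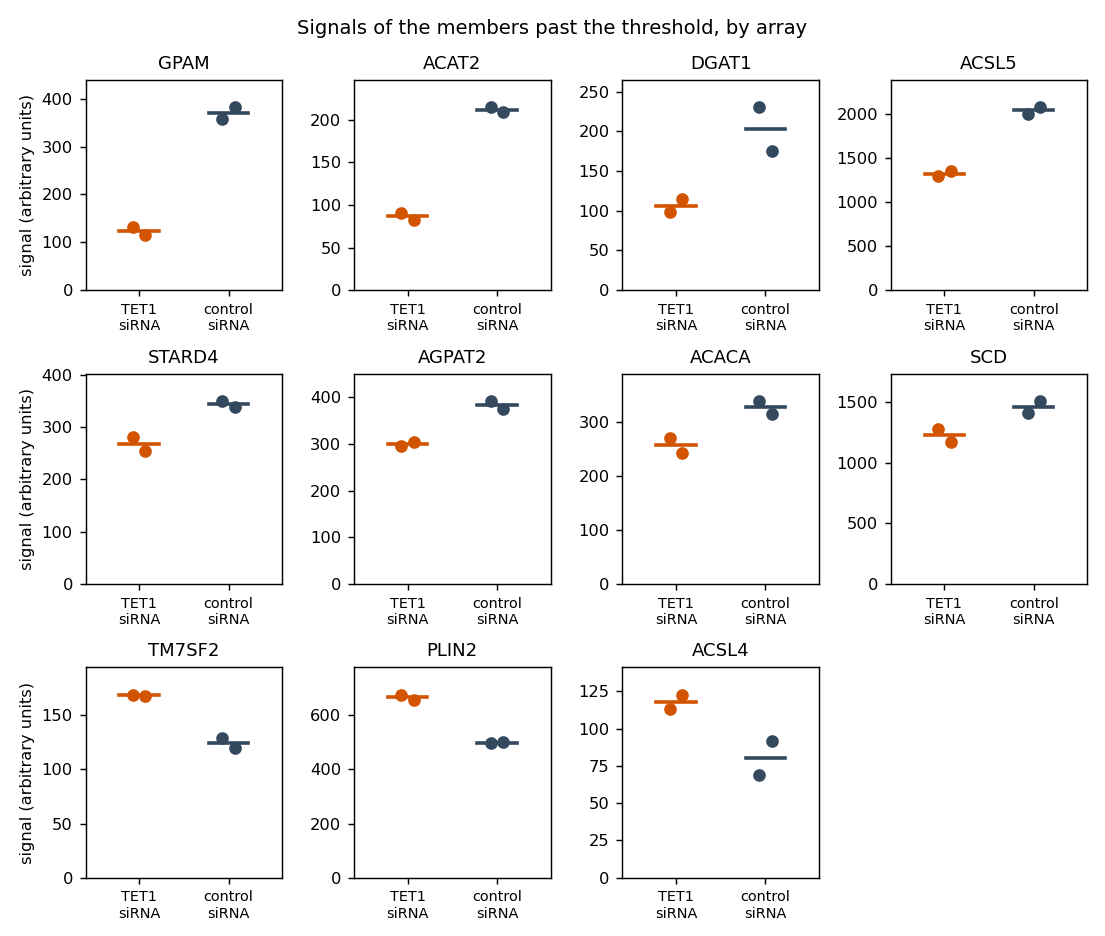
Signals (arbitrary units, each panel from 0) of the 11 members past the threshold, with the 2 TET1 siRNA arrays on the left and the 2 control siRNA arrays on the right of each panel and a bar at the mean. The groups are separate in all 11, with GPAM at 115.5 and 131.3 against 357.7 and 382.2, and with smaller gaps for SCD and ACSL4.

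The promoters of GPAM and PLIN2 are shown as those of the largest fall and of the rise with the smallest adjusted p among the members. GPAM lies at chr10:112183716-112184015 and PLIN2 at chr9:19127443-19127742, both on the minus strand (RefSeq, GRCh38.p14), and capitals mark the same 4 motifs on either strand.
GPAM: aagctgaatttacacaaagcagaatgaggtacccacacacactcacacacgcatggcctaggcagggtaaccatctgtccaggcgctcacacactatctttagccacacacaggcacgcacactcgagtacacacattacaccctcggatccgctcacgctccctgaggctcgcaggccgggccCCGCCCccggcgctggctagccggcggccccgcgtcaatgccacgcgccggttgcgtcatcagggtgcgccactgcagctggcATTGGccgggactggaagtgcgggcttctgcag
PLIN2: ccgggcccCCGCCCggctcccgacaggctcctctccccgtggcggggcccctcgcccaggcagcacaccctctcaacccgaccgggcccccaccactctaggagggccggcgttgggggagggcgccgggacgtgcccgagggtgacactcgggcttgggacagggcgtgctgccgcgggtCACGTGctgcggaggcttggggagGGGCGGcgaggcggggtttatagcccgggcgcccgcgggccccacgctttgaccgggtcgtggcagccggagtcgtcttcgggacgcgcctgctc

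GPAM held 1 CCAAT match and 1 GC box among 23 CpG sites, and PLIN2 held an E-box and 2 GC boxes among 36 CpG sites. Neither window holds the letters TCACNCCAC.

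Set side by side, the sterol branch had 3 of 17 members past the threshold (17.6%) and the fatty acid and glycerolipid branch 8 of 18 (44.4%), against 21.9% of all genes tested. Falls were 2 (11.8%) and 6 (33.3%), against 10.6% of all genes tested. Rises were 1 (5.88%) and 2 (11.1%), against 11.2%. The median log2 differences were -0.11 in the sterol branch and -0.05 in the fatty acid and glycerolipid branch. The sterol median was nearer 0 without TET1 siRNA replicate 2 (-0.04432), with a gene's probe sets averaged (-0.02017) and with _x_at and _s_at probe sets dropped (-0.03595). The gap between these medians was 0.056. A related but not identical measure, the gap between the branches' median log2 signals on each array, had an SD of 0.062 within groups (2 arrays each). The difference between the branches was not tested. Values in the fatty acid and glycerolipid branch ran from -1.47 to 0.48 and in the sterol branch from -1.15 to 0.40.

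More than 1 probe set was tested for 25 members, and in 15 of these all probe sets had the same sign. Tested one by one, 12 of the 79 member probe sets above the filter were lower and 3 higher (15 in all), from 12 members, where 16.1% of all 27306 probe sets passed. No member had probe sets that passed in opposite directions. Members that were called as genes but not in this larger family were ACACA (limma adjusted p = 0.051) and ACSL4 (0.0607), and members called only here were SREBF2, INSIG1 and DGAT2, each by a probe set other than its brightest.

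**Figure D4:**
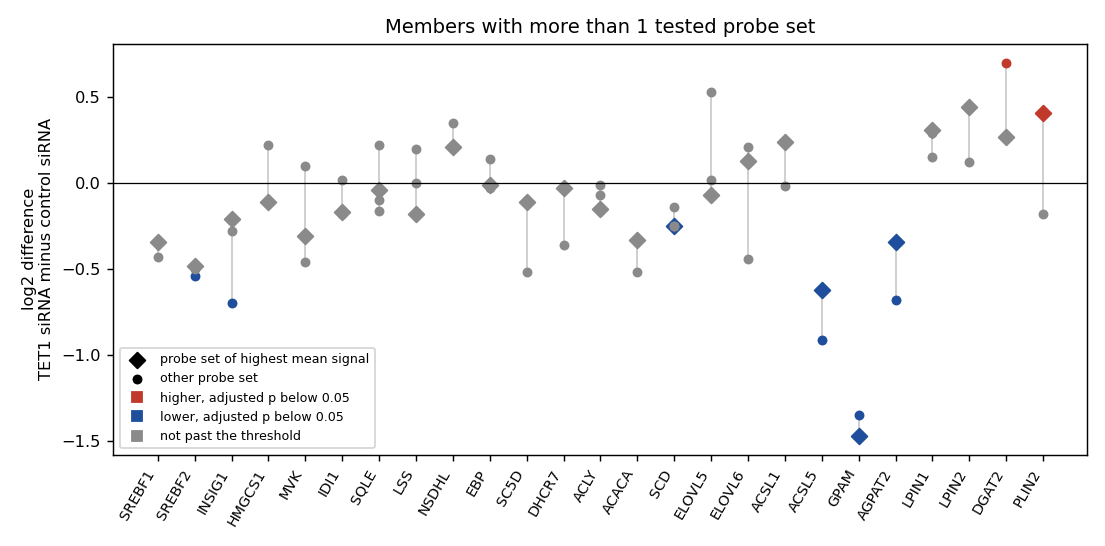
Log2 difference (TET1 siRNA minus control siRNA, vertical axis) of each tested probe set of the 25 members with more than 1, with the probe set of highest mean signal as a diamond and the others as circles. Both probe sets of GPAM (-1.47 and -1.35), ACSL5 and AGPAT2 are lower and past the threshold, while those of ELOVL5, ELOVL6 and PLIN2 lie on both sides of 0.

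Neighbouring parts of lipid metabolism were read from lists of genes outside the 46. Among all genes tested 11.2% rose and 10.6% fell, 21.9% in all, and no list was tested as a set. Of 13 measured genes of sterol transport and of the sterol-sensing receptor LXR, 2 rose and 3 fell (median log2 difference 0.089). ABCA1, which exports cholesterol from the cell, read 64.1 and 62.1 with TET1 siRNA against 29.9 and 28.7 with control siRNA and rose by 0.80 (SE 0.18, limma adjusted p = 0.00843). LIPA, the lysosomal acid lipase, fell by 0.74 (558.8 and 528.8 against 977.6 and 868.6, adjusted p = 1.33e-04), and NPC1, which moves cholesterol out of lysosomes, rose by 0.52 (484.2 and 479.6 against 307.7 and 356.5). Of 4 measured genes of NADPH and citrate supply, SLC25A1, the mitochondrial citrate carrier, fell by 0.65 (130.2 and 154.5 against 243.7 and 221.5, adjusted p = 0.003). Of 23 further genes of glycerolipid and phospholipid synthesis, 4 rose and 1 fell (median 0.02): CDS1, which makes CDP-diacylglycerol, fell by 0.58, its paralogue CDS2 rose by 0.47, and LPCAT1, a lysophospholipid acyltransferase, rose by 0.47.

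Of 22 genes of fatty acid oxidation, the opposite route, 2 rose and 2 fell (median -0.00055), where 21.9% of all genes tested passed. ACAA2, a mitochondrial thiolase, fell by 1.06 (77.8 and 84.6 with TET1 siRNA against 169.0 and 206.4 with control siRNA, limma adjusted p = 3.20e-04), ECI1 fell by 0.59 and the dehydrogenase gene ACADM rose by 0.40. No gene passed among 12 of the isoprenoid side branches (median 0.076) or among 6 further elongation genes (median 0.074). Among the adipocyte markers PPARG, a nuclear receptor of fat storage, fell by 0.50 (311.3 and 327.6 against 437.2 and 480.1, adjusted p = 0.0029), and the defining markers ADIPOQ, LEP, PLIN1 and FABP4 stayed at or below 13.5 on all arrays.

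**Figure D5:**
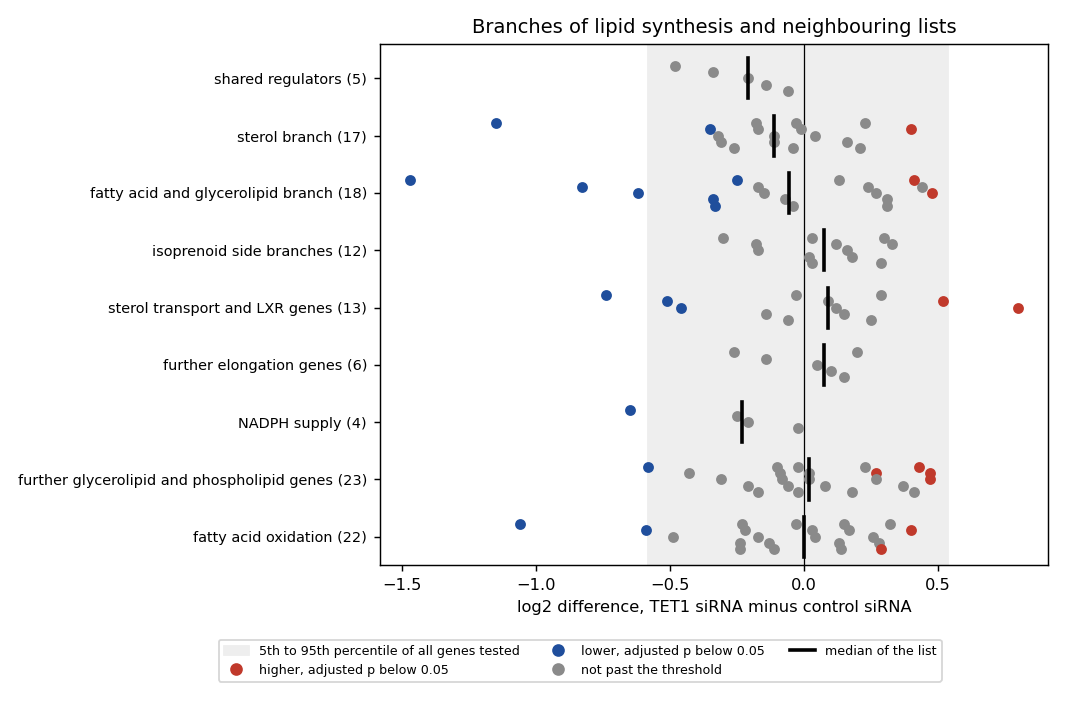
Log2 differences (TET1 siRNA minus control siRNA, horizontal axis) of the tested genes of the regulators, both branches and 6 neighbouring lists, with the number tested in brackets, the median of each list as a black bar and the range from the 5th to the 95th percentile of all genes in grey (-0.58 to 0.54). GPAM, ACAT2, DGAT1 and ACSL5 lie left of that range, as do ACAA2, LIPA, SLC25A1 and ECI1 of the neighbouring lists, and ABCA1 lies right of it. The medians of all 9 rows lie within 0.25 of 0.

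The calls did not all stand equally firm. GPAM, ACAT2, ACSL5 and DGAT1 were past the threshold without each of the 4 arrays in turn (highest limma adjusted p 3.41e-04, 0.0013, 0.00165 and 0.0202), as was PLIN2 (0.0336). The other 6 lost the call without at least 1 array, so that the number of members lower, 8 in all, was 5 without control siRNA replicate 1, 4 without control siRNA replicate 2, 6 without TET1 siRNA replicate 1 and 4 without that group's replicate 2. With each array centred on its median, 4 members were lower (GPAM, ACAT2, ACSL5 and DGAT1) and 3 higher. Permuting 4 arrays exactly gives no p smaller than 0.333. The adjusted p-values therefore depend on the variance that limma borrows across genes, and no member passed when nothing was borrowed.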

How the data were processed

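Expression was measured on 1 Affymetrix array for each of 4 cultures, 2 with TET1 siRNA and 2 with control siRNA, grouped by the siRNA in their titles. Per the labels' protocols, total RNA was reverse transcribed from an oligo(dT) primer and labelled by in vitro transcription. The deposited values are a linear intensity per probe set; from the values, the authors had scaled each array to the same trimmed mean, and for the software and background step the sources used here name none. A common scale hides a change in total mRNA.

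Here, log2(signal + 16) was fitted with limma 3.58.1 in R 4.3.3 (lmFit, eBayes with a variance trend), two-sided, with Benjamini-Hochberg adjustment over 12389 genes or 27306 probe sets and a threshold of 0.05. The fit has 2 residual degrees of freedom and a prior of 9.24. The annotation gave 1 symbol for 41091 probe sets, and 41037 matched RefSeq for current names. The fit was also run on simulated data drawn from the variance model that limma assumes, so that run cannot test the model itself. The replicate number was not used as a block, because nothing says that it marks a shared batch, and the block was run as an alternative. Same-numbered arrays did not deviate together (r = 0.00554 across genes, which are not replicates). Named are all members past the threshold, the regulators, other members by role, TET1 and at most 3 genes past the threshold per list; genes overlapping a member, cell markers and the remaining members' values were added after values were seen. Members and lists were chosen with earlier results of these data known. Figures were drawn with matplotlib 3.10.9.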

Additional observations from a re-analysis of the deposited data

How the results depend on the processing

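Direction was kept by all 11 called members in every alternative that gave them a value, and among the regulators SCAP (0.1046 without TET1 siRNA replicate 2; -0.2344 to 0.1046 over the 4 arrays left out) and INSIG1 (0.03376 without that group's replicate 1; -0.4538 to 0.03376) changed sign. The 8 members lower and 3 higher became 4 and 0 without a variance trend, 0 and 0 without moderation (where 11 members had an unadjusted p below 0.05), 5 and 1 unfiltered, and 4 and 1 of 23 when _x_at and _s_at probe sets were dropped, which leaves 6 called members untested (ACAT2, ACSL4, ACSL5, DGAT1, SCD and TM7SF2). With median centring 4 were lower, and averaging a gene's probe sets left 1 higher and 8 lower, which are not the same 8: ACACA and SCD were lost and SREBF2 and INSIG1 gained, and the fatty acid and glycerolipid branch had 4 lower. SREBF2 was also gained with a pseudocount of 64, FDPS without TET1 siRNA replicate 1, and FASN and PMVK with an upper-quartile filter. Leaving out 1 array gave 4 to 6 lower and 1 to 2 higher. For the sterol branch, 2 lower and 1 higher became 1 lower with median centring, 1 and 0 without a trend, unfiltered or with _x_at and _s_at dropped, 0 and 0 without moderation, and 1 to 2 lower and 0 to 1 higher without 1 array. For the fatty acid and glycerolipid branch, 6 lower and 2 higher became 3 and 2 with median centring, and 6 and 1 with a pseudocount of 1. They were 3 and 0 without a trend, 0 and 0 without moderation, 4 and 1 with no filter, and 4 and 0 with the mean of probe sets. With _x_at and _s_at probe sets dropped 3 and 1 were left, and without any 1 array fewer than 6 were lower. Member probe sets, 12 lower and 3 higher, became 11 and 5 with quantile normalization and 8 and 4 with median centring. They were 4 and 0 without a trend, 0 and 0 without moderation, and 6 and 1 with no filter, and fewer passed in either direction without any 1 array. The sterol median ranged from -0.1599 to -0.04432 without 1 array. The median of the fatty acid and glycerolipid branch was -0.1633 with an upper-quartile filter, 0.03015 with _x_at and _s_at dropped and from -0.0477 to 0.0115 without 1 array. The gap between the branch medians (0.056) was -0.08686 with that filter, -0.01417 with the mean of probe sets and from 0.02359 to 0.1368 without 1 array. With the replicate block, the members were 9 lower (PMVK gained) and 3 higher, the sterol branch 3 lower and member probe sets 11 lower; no count over all genes or members moved by over 1.5 times. Over all genes, 1393 higher and 1316 lower became 442 and 542 without a trend, 905 and 854 with no filter and 0 and 0 without moderation (2679 at unadjusted p below 0.05). The causes were not tested. With 2 arrays a group, small changes of dim genes could not be told from the spread.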
